A study of Mus musculus with 8 samples.

Results

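Integrins are the cell's main receptors for extracellular matrix. Each is a pair of an alpha and a beta subunit. On the inner side of the membrane, talins and kindlins bind the beta tail and switch the receptor on, and vinculin, the ILK complex, paxillin, p130Cas, zyxin and tensins then couple it to actin and to signalling. In the atrioventricular canal of the embryonic heart this machinery is used by the endocardial cells that leave the lining and migrate through the cushion matrix to form the forerunners of the valves. It is used as well by the muscle around them. The genes described here are the integrin alpha and beta subunits and 15 focal adhesion genes that were measured by probe sets with a single gene symbol on the array. The rule by symbol found 39 genes, 24 integrin subunits and 15 focal adhesion genes, among 18193 genes that had such a probe set. Itga11, Itgad, Fermt1 and Ptk2 had no probe set with that symbol and are not analysed here.

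Expression was measured in 8 pools, each of 10 microdissected mouse atrioventricular canals, on Affymetrix whole-genome arrays after isothermal NuGen amplification of 50 ng of total RNA. The 4 control pools were Gata4flox/flox. The 4 mutant pools were Gata4flox/flox; T2Cre+ (Gata4T2del), in which Cre under the Tie2 promoter deletes the zinc finger transcription factor Gata4 from endothelium and from the cushion mesenchyme that descends from it. Both groups therefore carried floxed Gata4 alleles on a mixed C57BL6/129 background, and no label states that the control pools had Cre. Tie2 promoters are also active in early blood cells, muscle keeps Gata4, and the stage and sex of the embryos are not given in the sources used here. The comparison asks which transcripts of the whole canal differ when endothelial cells and their descendants lack Gata4. No label states whether pools shared litters, so p-values measure the spread between these pools only. Whether a type had fewer cells or less RNA per cell cannot be told apart in pooled tissue.

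Values are quantile-normalized log2(signal + 16), and limma p-values were adjusted by the Benjamini-Hochberg method over the 27022 probe sets that passed a filter on dim signals, with a threshold of 0.05. A change is mutant minus control on this scale, weighted by array, and is given with its standard error (SE). Each gene is read on its brightest probe set unless stated. Being above background on an array means lying above the 90th percentile there of 27 probe sets for bacterial spike RNA. Their median signal was 135 to 158 on controls 2 and 3, 19.4 to 39.3 on controls 1 and 4, and no more than 26.0 on the mutant arrays. Controls 2 and 3 thus stood apart, with weights of 0.302 and 0.350 in the fit against 0.867 to 2.80 for the other 6 arrays, and results that change without them are given both ways. The log2 ratio of the 3 prime to the 5 prime probe set of Actb, a sign of RNA integrity, ran from 1.14 to 1.40 on the controls and from 1.31 to 1.51 on the mutants. That of Gapdh ran from 0.358 to 0.481 on the controls and from 0.307 to 0.418 on the mutants, so the groups overlapped in both ratios, and on the mutants the range lay higher for Actb and lower for Gapdh.

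Of the 39 genes, 31 passed the filter and were tested, 16 of 24 integrin subunits and all 15 focal adhesion genes. Of these, 1 rose and 0 fell. The gene that rose was Itga1, the alpha subunit of a collagen and laminin receptor. Over all 12069 genes tested on the brightest probe set, 0.0663% were called, 0.0414% higher and 0.0249% lower. Over all 27022 probe sets 0.0444% were called, 0.0259% higher and 0.0185% lower. At an unadjusted p under 0.05 the members numbered 3 of 31, Itga1 and Itga3 with positive and Lims1 with negative changes, or 9.68% against 12.9% of all genes (7.31% higher, 5.61% lower). The 4 control values and the 4 mutant values did not overlap for 3 members, Itga1, Bcar1 and Tns1, which was 9.68% of members against 8.16% of all genes (4.97% higher, 3.19% lower). Changes were positive for 16 members and negative for 15, with a median of 0.015, beside 0.019 for all genes tested. With Itga1 counted, the share of members without overlap was near that of all genes. The share at an unadjusted p under 0.05, also with Itga1, lay below that of all genes. Shares without Itga1 are not given. Without controls 2 and 3, 0 members passed.

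**Figure D1:**
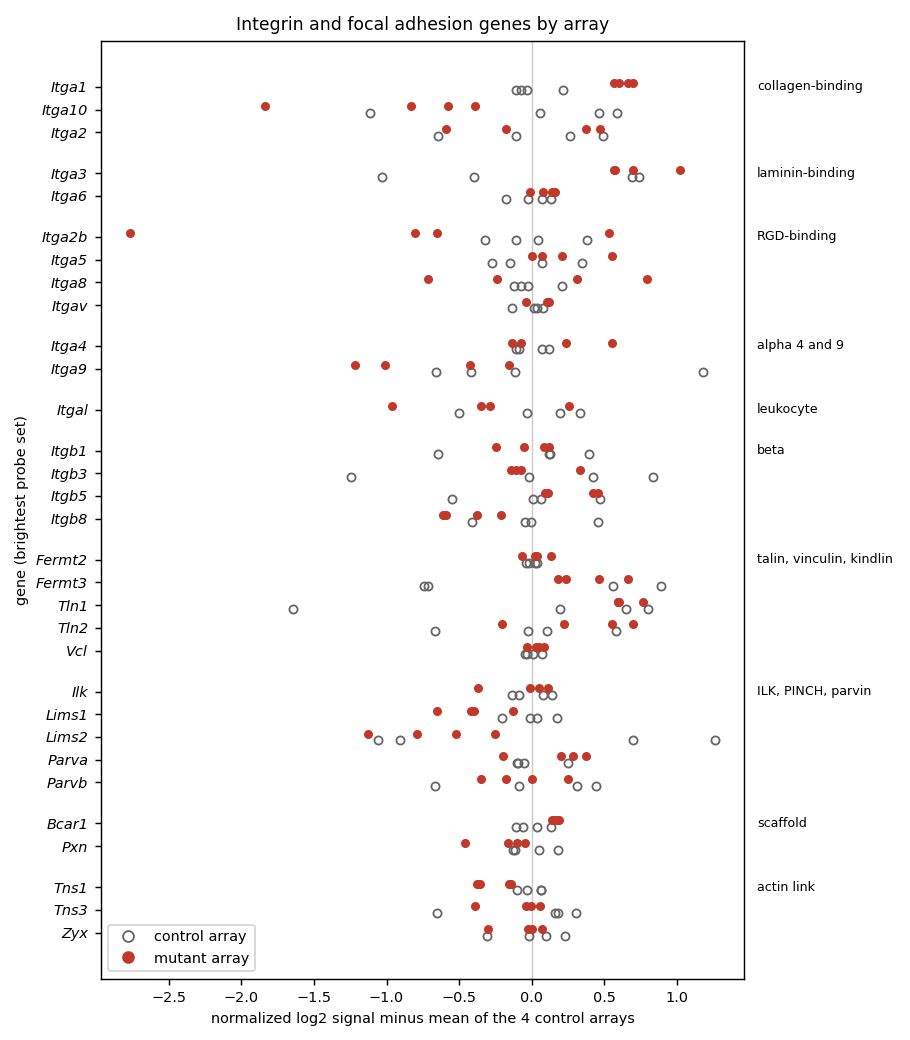
Normalized log2 signal of the 31 tested integrin and focal adhesion genes on each array, as the difference from the mean of the 4 control arrays (x axis), with genes in rows by role (y axis). Open circles are control arrays and red points mutant arrays. Only Itga1, Bcar1 and Tns1 have no overlap between groups, and several control values far to the left or right are those of controls 2 and 3.

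Among collagen-binding integrins, Itga1 encodes the alpha 1 subunit, which pairs with beta 1 and is found on mesenchyme, smooth muscle and capillary endothelium. Its values were 11.66, 11.33, 11.41 and 11.37 in controls 1 to 4 and 12.14, 12.04, 12.01 and 12.11 in mutants 1 to 4. All 4 mutant pools lay above all 4 control pools, and the mutant pools differed little from each other, with means of 11.44 ± 0.15 in controls and 12.07 ± 0.06 in mutants (SD, n = 4 each). The change was 0.56 (SE 0.09, adjusted p = 0.0183 by limma), or 1.48-fold. A second, dimmer Itga1 probe set had values of 8.46, 8.43, 7.42 and 8.35 in the controls and 9.12, 9.08, 9.05 and 8.93 in the mutants. Here too the groups did not overlap, with a change of 0.73 (SE 0.22), although it did not pass (adjusted p = 0.244 by limma). Both probe sets were above background on all 8 arrays.

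The size of the Itga1 change held better than its call. In 21 alternatives of processing and of the arrays used, it was positive in each, passed in 16 and did not pass in 5. It did not pass without controls 2 and 3, whether with array weights (0.57, adjusted p = 0.117 by limma) or without them (0.57, adjusted p = 0.112). Nor did it pass without mutant 1 (0.54, adjusted p = 0.0555), with the RNA integrity ratios as a covariate (0.49, adjusted p = 0.165), or when both probe sets were averaged (0.63, adjusted p = 0.0662). Relative to the median of all genes in the same setting, the change ran from 0.49 to 1.04. All settings reuse the same 8 arrays, so the 16 passes are not independent of each other. With arrays centred on their median, 17251 of 27022 probe sets were called higher, and without controls 1 and 4, 2500 were. Passing in those settings says little about Itga1 itself.

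**Figure D2:**
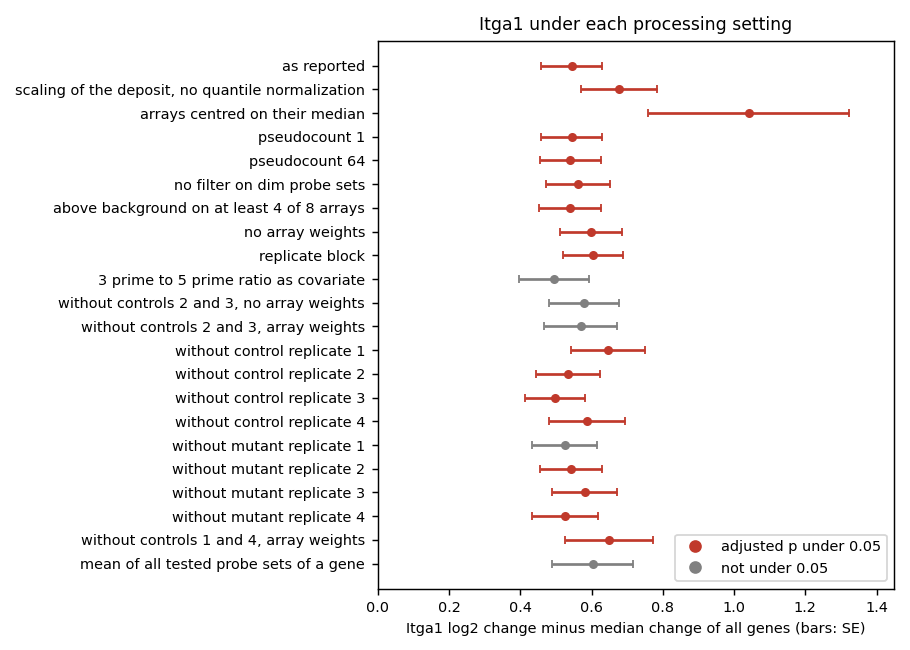
Change of Itga1, mutant minus control, on the log2 scale after subtracting the median change of all genes (x axis) under each processing setting (y axis). Bars are standard errors, and red marks settings with adjusted p under 0.05. Points run from 0.49 to 1.04, and 5 alternatives in grey did not pass.

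Because Itga1 was the member that rose in a deletion of a GATA factor, the 250 bases before its annotated start are shown. They are RefSeq sequence of build GRCm38.p6, minus strand, at chr13:115101965-115102214. The bases searched were the GATA motif spellings AGATAA or AGATAG and, with another first letter, TGATAA or TGATAG, each on both strands, and a match would be in capitals.
Itga1: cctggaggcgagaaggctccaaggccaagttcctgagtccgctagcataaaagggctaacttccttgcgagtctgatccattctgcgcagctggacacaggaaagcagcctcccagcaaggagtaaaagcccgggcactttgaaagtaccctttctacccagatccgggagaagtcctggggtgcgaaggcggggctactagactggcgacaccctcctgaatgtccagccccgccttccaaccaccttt
This window holds none of these spellings. Of the 39 members, 28 had windows in the RefSeq table, 34 windows in all. A spelling occurred in 4 of the 34 (11.8%), 1 each in Itgax and Itgb7 and in 2 of the 3 windows of Lims1, and in 26.5% of all 32851 windows. A match is a run of letters and not a measured site.

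Of the other collagen-binding subunits, Itga10, known from cartilage, had values of 8.22, 7.69, 8.09 and 6.51 in the controls and 7.05, 5.79, 6.80 and 7.24 in the mutants. The groups overlapped, 3 arrays of each were above background, and the change was -0.76 (SE 0.43, adjusted p = 0.468 by limma). Itga2, the platelet and epithelial collagen receptor, was above background on 1 control array and 3 mutant arrays, and no size of change is given for it. Of the collagen-binding subunits only Itga1 passed, and the others were too imprecise or too dim to show whether they moved with it. The direct neighbour of Itga1 on the chromosome in RefSeq is Itga2, and the small gene Pelo lies within the span of Itga1. Pelo, which encodes a ribosome rescue factor, had a change of 0.49 (SE 0.30, adjusted p = 0.508) and was above background on 2 control and 4 mutant arrays.

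Among laminin-binding subunits, Itga6, the alpha 6 subunit of endothelium and epithelia, had values of 13.70, 13.77, 13.46 and 13.60 in the controls and 13.77, 13.62, 13.71 and 13.79 in the mutants. The groups overlapped within a narrow band, and the change was 0.09 (SE 0.05, adjusted p = 0.497 by limma). Itga3, the alpha 3 subunit of epithelia, had values of 5.46, 6.09, 7.19 and 7.23 in the controls and 7.06, 7.19, 7.51 and 7.07 in the mutants. Only 2 control arrays were above background, against 4 mutant arrays, and its change of 0.98, the largest positive one among the members, had a large error (SE 0.45, adjusted p = 0.385 by limma). Without control 1 it was 0.39. Itga7, the laminin receptor of mature muscle, was above background on none of the 8 arrays, and Itgb4, of hemidesmosomes, on 1 mutant array.

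Among the subunits that bind fibronectin and vitronectin through the RGD sequence, 0 passed. Itga5, the main fibronectin receptor subunit, had values of 9.60, 10.09, 9.47 and 9.82 in the controls and 9.74, 10.30, 9.81 and 9.96 in the mutants. The change was 0.21 (SE 0.16, adjusted p = 0.595 by limma), and 2 dimmer tested probe sets had changes of -0.07 and -0.49. Itgav, the alpha v subunit, had values of 13.36, 13.40, 13.33 and 13.18 in the controls and 13.44, 13.43, 13.28 and 13.42 in the mutants. Its change was 0.07 (SE 0.06, adjusted p = 0.657 by limma). For both genes the groups overlapped. Itga8, a subunit of mesenchymal cells that binds nephronectin, had a change of 0.29 (SE 0.36, adjusted p = 0.759), and its mutant values spread more than its control values, from 6.92 to 8.43 against 7.52 to 7.84.

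Itga2b, the platelet fibrinogen receptor subunit, had values of 7.51, 7.66, 8.002 and 7.29 in the controls and 8.15, 4.85, 6.81 and 6.97 in the mutants. The change was -0.66 (SE 0.52, adjusted p = 0.612 by limma), and mutant 1 lay above every control. Markers of platelets and their precursors had negative changes for all 7 tested of 8 with a probe set, with a median of -0.39, and 0 passed. Their summed normalized signal was 2910 to 3805 in controls and 1687 to 2613 in mutants, without overlap, and all 8 were above background on at least 1 array. Thbs1, which gave the largest part of this sum, encodes thrombospondin, which is not made by platelets alone and also stands on the list of integrin ligands. Without it, a choice made after seeing the data, the sums were 1610 to 2533 in controls and 1204 to 1690 in mutants and overlapped. Pf4, a platelet chemokine, had a change of -0.18 (SE 0.19). Their part in the Itga2b values was not tested.

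Itga4, the subunit of the VCAM1 and fibronectin receptor that the epicardium needs, had values of 11.03, 10.87, 11.08 and 10.85 in the controls and 10.88, 10.83, 11.19 and 11.51 in the mutants. Mutants 3 and 4 lay above all controls and mutants 1 and 2 among or below them, and the change was 0.24 (SE 0.15, adjusted p = 0.523 by limma). Its 3 dimmer tested probe sets had changes of 0.02, 0.34 and 0.50. Epicardial markers had positive changes for all 7 tested, with a median of 0.56, and 0 passed. Their summed signal was 5005 to 6058 in controls and 7618, 6918, 8266 and 10376 in mutants 1 to 4. The 2 pools with the highest sums were the 2 with the highest Itga4. Mutants 1 and 2 also had sums above all controls, but their Itga4 values lay among or below those of the controls. Aldh1a2 and Msln of that list were above background on no control array, and the part of the epicardium in the Itga4 values was not tested. Without mutant 4 the Itga4 change was 0.07.

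Itga9, a receptor subunit for tenascin C and for VCAM1, had values of 7.97, 7.43, 9.27 and 7.67 in the controls and 6.86, 7.66, 7.93 and 7.07 in the mutants. The change was -0.56 (SE 0.36, adjusted p = 0.523 by limma), with control 3 far above the rest. Its other 2 probe sets had changes of -0.10 and -0.54.

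Leukocyte integrins were close to background. Itgal was the only one of 6 with a brightest probe set that passed the filter, and it was above background on 1 control and 3 mutant arrays. The others, Itgae, Itgam, Itgax, Itgb2 and Itgb7, were above background on 0 to 2 control arrays and 1 to 3 mutant arrays and were not tested. Markers of leukocytes and macrophages were also dim. Of 11 with a probe set, 5 passed the filter, Adgre1 and Cd14 were above background on no array, and the summed signal overlapped between groups, at 525 to 1243 in controls and 959 to 1298 in mutants.

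Among beta subunits, Itgb1 pairs with most of the alpha subunits above, Itga1 among them. Its brightest probe set had values of 10.69, 9.93, 10.69 and 10.96 in the controls and 10.52, 10.69, 10.66 and 10.32 in the mutants. Control 2 was lowest and the groups overlapped, with a change of -0.17 (SE 0.15, adjusted p = 0.653 by limma). The next probe set, also above background on all 8 arrays, had values of 10.35, 10.20, 10.37 and 10.25 in the controls and 10.39, 10.48, 10.49 and 10.31 in the mutants, with a change of 0.10 (SE 0.12, adjusted p = 0.736). The 3 dimmer tested ones had changes of 0.18, 0.22 and 0.76. No Itgb1 probe set passed, and the direction depended on the probe set and on the controls: for the brightest it was -0.32 without controls 2 and 3 and 0.21 without controls 1 and 4.

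Itgb8, which with alpha v activates latent TGF-beta, had values of 8.75, 9.21, 8.71 and 8.35 in the controls and 8.37, 8.14, 8.54 and 8.16 in the mutants. All mutants lay below 3 of the 4 controls, and the change was -0.33 (SE 0.22, adjusted p = 0.544 by limma). Itgb3, the partner of Itgav and Itga2b, had a change of -0.27 (SE 0.25, adjusted p = 0.668), with controls spread from 7.98 to 10.07 and mutants from 9.09 to 9.57. Without controls 2 and 3 its change was -0.64 and the groups did not overlap, yet it did not pass (adjusted p = 0.650 by limma). With fewer controls, a lack of overlap is more frequent in any gene. Itgb5, another partner of alpha v, had a change of 0.18 (SE 0.26). Itgb6, an epithelial subunit, was above background on 2 control arrays and 1 mutant array.

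Of the genes for talins, kindlins and vinculin, 0 passed. Vcl encodes vinculin, which binds talin under tension and recruits actin. Its values were 13.63, 13.74, 13.62 and 13.67 in the controls and 13.75, 13.63, 13.72 and 13.69 in the mutants. The change was 0.05 (SE 0.04, adjusted p = 0.634 by limma). The kindlin Fermt2, which acts with talin on the beta tail, had values of 11.60 to 11.67 in the controls and 11.57 to 11.77 in the mutants, with a change of 0.03 (SE 0.08). Both had small errors and overlapping groups. Tln1, the widespread talin, had a change of 0.29 (SE 0.28, adjusted p = 0.681), and Tln2, the talin of striated muscle and brain, one of 0.28 (SE 0.31, adjusted p = 0.724). The Tln1 controls held a low value of 7.21 on control 3, against 9.05 to 9.66 on the other 3 controls and 9.45 to 9.62 on the mutants. Fermt3, the kindlin of blood cells, had a change of -0.03 (SE 0.38) and was above background on 2 control arrays.

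In the complex of ILK, PINCH and parvin, which links beta tails to actin, the probe sets of the PINCH gene Lims1 went in opposite directions. The brightest had values of 10.19, 10.57, 10.43 and 10.39 in the controls and 10.27, 9.74, 10.00 and 9.98 in the mutants, with a change of -0.31 (SE 0.14, adjusted p = 0.370 by limma). Another had values of 8.70, 8.46, 8.60 and 8.43 in the controls and 8.31, 7.14, 8.14 and 8.15 in the mutants, all mutants below all controls, with a change of -0.53 (SE 0.27, adjusted p = 0.423). A different one had values of 7.54, 8.50, 8.12 and 8.03 in the controls and 8.60, 8.52, 8.86 and 8.50 in the mutants. Here all mutants lay above all controls, mutant 4 and control 2 being equal to 2 decimals, with a change of 0.80 (SE 0.24, adjusted p = 0.245). All 3 were above background on all 8 arrays, and a further one of that kind had a change of 0.25 (SE 0.22). The remaining tested Lims1 probe set was above background on 1 control and 4 mutant arrays, and no size is given for it. No Lims1 probe set passed. The gene's direction is therefore not settled by these arrays, and the transcript that each probe set reads is not known here.

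**Figure D3:**
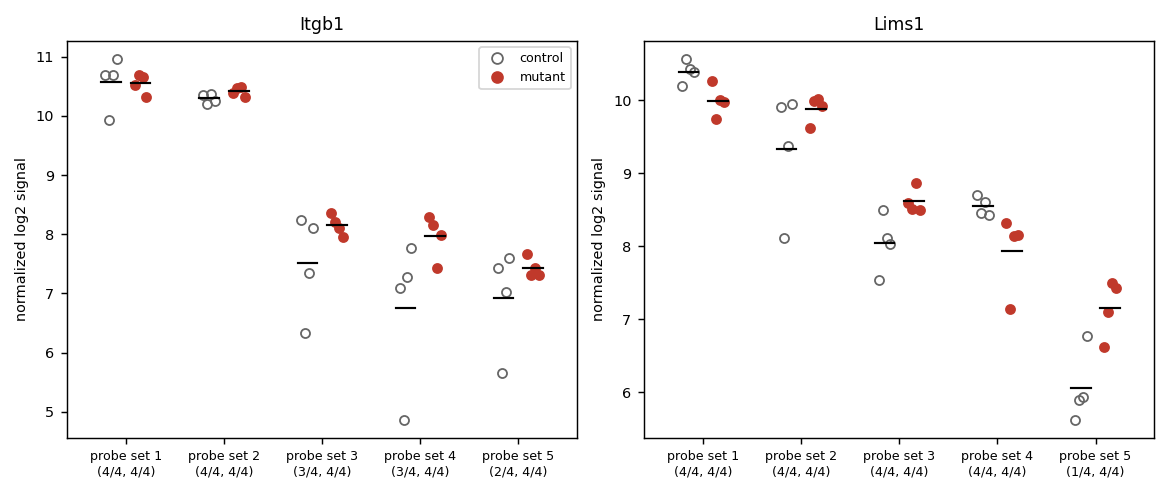
Normalized log2 signal (y axis) of each tested probe set of Itgb1 and Lims1 (x axis, brightest first) on control arrays (open circles) and mutant arrays (red points), with group means as bars. The numbers in brackets are arrays above background of 4 controls and of 4 mutants. Lims1 probe sets 3 and 4 separate the groups in opposite directions, and the low control values of Itgb1 include control 2.

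RefSeq gives Lims1 3 annotated starts on the plus strand of chromosome 10, and since its probe sets disagree the 250 bases before each are shown. They lie at chr10:58323297-58323546, chr10:58351713-58351962 and chr10:58371204-58371453 of GRCm38.p6, with matches to the GATA spellings in capitals.
Lims1 first start: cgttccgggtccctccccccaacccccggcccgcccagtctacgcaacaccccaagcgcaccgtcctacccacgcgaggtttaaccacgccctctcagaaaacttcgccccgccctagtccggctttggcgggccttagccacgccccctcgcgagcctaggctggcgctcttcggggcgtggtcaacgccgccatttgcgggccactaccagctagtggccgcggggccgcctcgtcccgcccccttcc
Lims1 second start: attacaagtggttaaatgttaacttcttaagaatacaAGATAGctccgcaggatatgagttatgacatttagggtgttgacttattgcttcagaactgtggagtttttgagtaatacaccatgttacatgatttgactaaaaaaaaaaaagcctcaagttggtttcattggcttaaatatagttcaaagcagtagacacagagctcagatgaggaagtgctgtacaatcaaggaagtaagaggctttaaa
Lims1 last start: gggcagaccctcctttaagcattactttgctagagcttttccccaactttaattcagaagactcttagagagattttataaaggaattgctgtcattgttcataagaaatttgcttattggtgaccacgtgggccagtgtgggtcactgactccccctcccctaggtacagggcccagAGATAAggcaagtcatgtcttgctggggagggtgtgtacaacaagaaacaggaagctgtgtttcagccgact
The first window has no match, and the other windows have 1 each.

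Ilk, the pseudokinase at the core of the complex, had means of 9.82 ± 0.13 in controls and 9.76 ± 0.22 in mutants (SD, n = 4 each). Its change, which is weighted by array and so can differ in sign from the plain means, was 0.02 (SE 0.15, adjusted p = 0.977 by limma). The parvin gene Parva had values of 10.32, 10.28, 10.63 and 10.27 in the controls and 10.74, 10.17, 10.66 and 10.58 in the mutants. Mutant 2 lay below all controls and the other mutants above at least 3 of them, with a change of 0.25 (SE 0.13, adjusted p = 0.436). Lims2 (-0.03, SE 0.39) and Parvb (-0.21, SE 0.26) did not pass either. The Lims2 controls split, with 8.44 and 9.01 on controls 2 and 3 and 6.84 and 6.69 on controls 1 and 4, against 6.62 to 7.49 on the mutants.

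Among the scaffold and actin-linking genes, Bcar1 and Tns1 had groups that did not overlap. Bcar1 encodes p130Cas, which is phosphorylated at adhesions and recruits Crk. It had values of 8.93, 9.17, 9.07 and 8.97 in the controls and 9.19, 9.17, 9.21 and 9.23 in the mutants. The lowest mutant and the highest control were equal to 2 decimals, and the change of 0.22 (SE 0.16) did not pass (adjusted p = 0.579 by limma). Its second probe set had a change of 0.53 (SE 0.37). Tns1, a tensin that binds integrin tails and actin in fibrillar adhesions, had values of 10.18, 10.07, 10.18 and 10.01 in the controls and 9.73, 9.96, 9.97 and 9.75 in the mutants. Its change of -0.26 (SE 0.13) did not pass (adjusted p = 0.428 by limma), and its dimmer probe sets had changes of -0.25 and 0.05. On the scaling of the deposit, without quantile normalization, both genes had overlapping groups, while Vcl (0.13) was higher without overlap. Pxn, the adaptor paxillin, had a change of -0.09 (SE 0.11), Tns3 of -0.19 (SE 0.17) and Zyx, the mechanosensitive LIM protein zyxin, of 0.08 (SE 0.20), with overlapping groups for each.

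**Figure D4:**
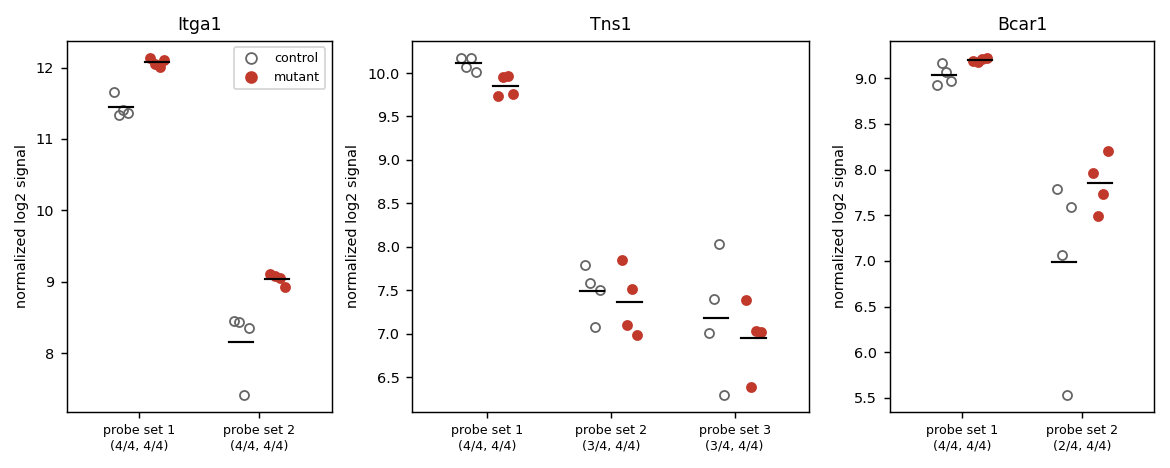
Normalized log2 signal (y axis) on control arrays (open circles) and mutant arrays (red points) for each tested probe set (x axis, brightest first) of Itga1, Tns1 and Bcar1, with group means as bars and arrays above background of 4 controls and of 4 mutants in brackets. Both Itga1 probe sets separate the groups, whereas for Tns1 and Bcar1 only the brightest does.

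Where a gene had several probe sets, they often differed in direction. Of the 31 tested genes, 18 had more than 1 tested probe set, and 33 further probe sets were above background on at least 2 arrays of each group. Of these, 20 had a change of the same sign as the brightest and 13 the opposite sign. In 10 of the 18 genes all signs were the same, Itga1, Itga4, Parva and Bcar1 among them. The differences between control pools were also larger than between mutant pools for 20 of 31 genes, with a median SD of 0.30 in controls and 0.22 in mutants.

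Other genes of integrin adhesion gave no call. Of 29 tested ligands of integrins, 15 had positive and 14 negative changes, with a median of 0.00096, and 0 passed. The smallest p-values were those of tenascin C, Tnc (-0.83, SE 0.19), a ligand of alpha 9 integrin, fibronectin, Fn1 (-0.35, SE 0.09), the basement membrane collagen Col4a2 (0.34, SE 0.11), which Itga1 binds, and the alpha 4 ligand Vcam1 (0.32, SE 0.10). Their adjusted p-values by limma were 0.154, 0.195, 0.252 and 0.260. Without overlap between groups, 2 ligands were lower in the mutants, Tnc and Fn1, and 4 were higher, Col4a1, Col4a2, Lamb2 and Icam1. Lamb2 was above background on 2 control arrays and Icam1 on 1. Of all genes tested, 4.97% were higher and 3.19% lower without overlap.

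Of 30 tested signalling genes downstream of integrins, 9 had positive and 21 negative changes, with a median of -0.06, and 0 passed. The kinase Pak2 had a change of -0.42 (SE 0.12, adjusted p = 0.240 by limma) and the Rac exchange factor Arhgef7, which binds Pak proteins, of -0.35 (SE 0.15, adjusted p = 0.367), both without overlap. The GTPase Rap1a, which recruits talin to integrins, had a change of -0.28 (SE 0.13), and the inhibitory kinase Csk, above background on 2 control arrays, of 0.99 (SE 0.38).

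Of 25 tested linkers of adhesions to actin, 17 had positive and 8 negative changes, with a median of 0.03, and 0 passed. Actn1, the widespread alpha-actinin, had a change of -0.18 (SE 0.08, adjusted p = 0.382 by limma). The muscle proteins Flnc (0.73, SE 0.36) and Itgb1bp2 (0.24, SE 0.11), and the actin regulator Vasp (-0.18, SE 0.09), did not pass either. Among the tested linkers, Flnc was higher and Actn1 and Enah were lower without overlap between groups. Of 16 other matrix receptors and co-receptors, 10 had positive and 6 negative changes. The hyaluronan receptor Cd44 came closest (0.36, SE 0.07, adjusted p = 0.0654 by limma), followed by the laminin integrin partner Cd151 (0.37, SE 0.16) and the syndecans Sdc4 (0.27, SE 0.12) and Sdc3 (-0.50, SE 0.33). None passed. Of these receptors, Cd44 and Cd151 were higher and Sdc3 was lower without overlap between groups.

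The same pools differed in markers of cell types that carry integrins. The summed signal of 10 cushion mesenchyme markers was 19464 to 21344 in controls and 10728 to 15695 in mutants, and 8 of the 10 had negative changes (median -0.63). That of 10 endothelial markers was 5194 to 5790 and 6457 to 7061, and 8 of 9 tested had positive changes (median 0.33). That of 10 cardiomyocyte markers was 91680 to 97339 and 100670 to 103884, with positive changes for all 10 (median 0.12). Smooth muscle markers summed to 27311 to 28956 in controls and 29320 to 30407 in mutants. These sums are led by the brightest probe sets of each list, none of these groups of sums overlapped, also without the marker that gave the largest part of each sum, and 0 markers passed singly. Cldn5 and Nkx2-5 were each above background on 1 control array, Tie1 on 2 and Myh11 on none. Of the 10 endothelial markers, 5 were above background on all 8 arrays. The part of any of these shifts in the Itga1 change was not tested.

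**Figure D5:**
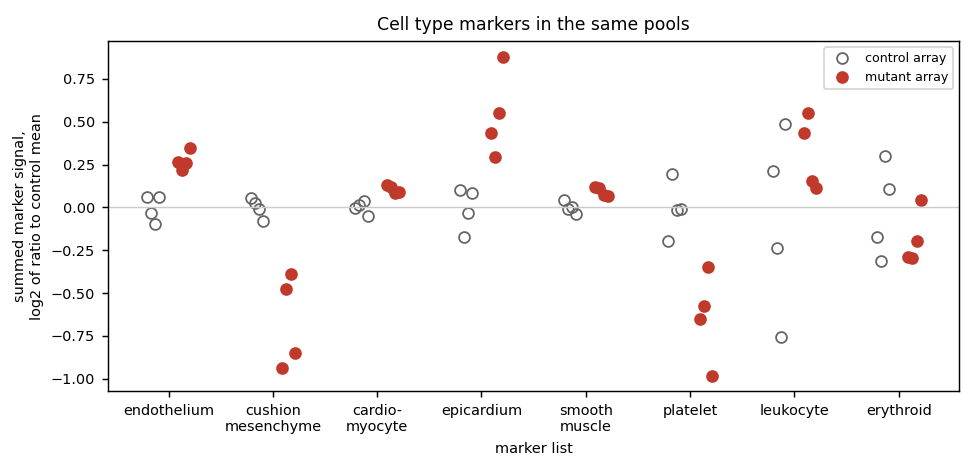
Summed normalized signal of each cell type marker list (x axis) on each array, as the log2 of its ratio to the mean of the 4 control arrays (y axis). Open circles are control arrays and red points mutant arrays. Cushion mesenchyme and platelet sums (the latter only with Thbs1) are lower, and endothelial, cardiomyocyte, epicardial and smooth muscle sums higher, on all 4 mutant arrays than on all 4 control arrays, while leukocyte and erythroid sums overlap.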

How the data were processed

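Per the submitters' processing notes MAS5 was used, and the authors deposited its linear intensities for 8 arrays. Version, background step and detection calls are not given in the sources used here. The plain mean was 715 on every array. From these, log2(signal + 16) was taken, and arrays were quantile normalized because their 2% trimmed means differed by 1.12 times, above a limit of 1.1. The 64 control probe sets of the array and the dimmest 40% of the other probe sets were left out. The design text says that 2 controls were excluded for noise without naming them, and all 4 deposited were kept. Names came from the platform annotation (34958 probe sets with 1 symbol, 932 with several, 9211 with none). Of those with 1 symbol, 34754 matched RefSeq GRCm38.p6 by Entrez ID. The comparison of groups used limma (3.58.1, R 4.3.3), with array weights and eBayes with trend and robust. The fit was tested on simulated data, and the outcome of that test is not given here. The precision is limited by the number of arrays.

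Genes given with every array value were those past the threshold, those without overlap, Itgb1 and the 12 others of smallest p, and from each other list those past the threshold and up to 4 of smallest p. Sizes of change are left out where under 2 arrays of a group were above background. The members and lists were chosen with earlier results of these data known. Alternatives were scaling, pseudocount, filter, weights, a replicate block, the arrays used, RNA integrity and the mean over probe sets.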

Additional observations from a re-analysis of the deposited data

Results flagged for a closer look

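In 5 of 62 groups of 4 arrays examined, 1 array stood apart from the other 3 by more than Dixon's critical value, where chance gives about 1 in 20. On the controls these were Tns3 on control 2 (8.98, nearest 9.80) and Parva on control 3 (10.63, nearest 10.32). On the mutants they were Itgb3 on mutant 4 (9.57, nearest 9.16), Itgav on mutant 3 (13.28, nearest 13.42) and Tln1 on mutant 3 (9.62, nearest 9.46). Without control 2 the Tns3 groups did not overlap, with a change of -0.30 (adjusted p = 0.495 by limma). Without mutant 3 those of Itgav did not, with a change of 0.13 (adjusted p = 0.422 by limma). In both genes the array left out was the one that stood apart, so the loss of overlap follows from that choice and shows no difference between groups.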

How the results depend on the processing

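Against 7 higher and 5 lower probe sets as reported, the counts were 59 and 40 on the scaling of the deposit, 22 and 12 with pseudocount 64, 14 and 12 without the filter, 6 and 10 without array weights, 2 and 2 with the RNA integrity ratios as a covariate, and 1 and 1 without controls 2 and 3 with or without weights. With 1 array left out they ran from 3 to 1425 and from 2 to 380. With controls 1 and 4 left out, a choice made after seeing the data, they were 2500 and 748. With median-centred arrays, where the median gene lay at 1.32, they were 17251 and 1956, and 22 members were called higher and 1 lower.

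Members called higher numbered 0 with the covariate, without controls 2 and 3, and with probe sets averaged, 0 to 1 with 1 array left out, and 2 (Itga1, and Tln1 at 1.35) with 1 lower (Lims2 at -1.49) without controls 1 and 4. The members without overlap numbered 1 higher and 0 lower when median-centred, 5 and 7 without controls 1 and 4, 2 and 4 without controls 2 and 3, 2 to 3 and 1 to 3 with 1 array left out, and 2 and 0 with probe sets averaged. The 4 lower without controls 2 and 3 were Tns1, Tns3, Itgb1 and Itgb3. With arrays left out, a lack of overlap is more frequent in any gene. The share of all genes without overlap is not given for these settings, so these counts do not show that more members differed. The members' median, 0.015 as reported, was 1.17 when median-centred, 0.12 without controls 1 and 4, -0.020 on the scaling of the deposit, -0.074 and -0.016 without controls 2 and 3 (unweighted and weighted), and -0.015 to 0.050 with 1 array left out. Single genes turned direction when median-centred (Itgb1 1.56, Itgb8 0.33, Lims1 1.06, Tns1 1.17), with probe sets averaged (Itga5 -0.11, Itgb1 0.21, and Lims1 0.29, a mean that includes the probe set above background on 1 control array), and for Itgb1 with 1 array left out (-0.26 to 0.092, above 0 without control 1 or control 4) and without controls 1 and 4 (0.21). The cause was not tested, except that median centring raises the whole array. Relative to the median of all genes in that setting, Itgb8 (-0.996), Lims1 (-0.27) and Tns1 (-0.16) remained negative, and Itgb1 was at 0.23.

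Control and mutant pools share replicate numbers. Deviations of pools with the same number correlated at -0.11, 0.01, -0.13 and 0.17, and 0 of 4 controls correlated best with their own number. Whether the numbers mark a pairing cannot be settled by 4 such correlations. With the replicate block, 26 probe sets were higher and 34 lower, the members' median was -0.031, and Itga1 changed by 0.63 (adjusted p = 0.00393 by limma).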

Other observations

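Of the 92 probe sets of the 39 genes, 12 were above background on at least 1 mutant array and on no control array. In the other direction, 2 were above it on at least 1 control array and on no mutant array. The matching shares of all probe sets are not given here. The background cut was a signal of 21.4 to 65.4 on the mutants, 51.1 to 97.5 on controls 1 and 4 and 270 to 316 on controls 2 and 3. Of all 92, 59 were above background on all 4 mutant arrays, 36 of them also on all 4 control arrays and 13 on 2 or fewer controls. Another probe set of Itga5 had values of 5.33, 5.53, 5.69 and 4.88 in the controls, above background on none, and of 6.68, 6.75, 6.90 and 6.30 in the mutants, above background on all 4. A second probe set of Parvb had 5.54, 5.72, 5.65 and 5.04 in the controls, above background on none, and 6.89, 6.55, 6.03 and 6.04 in the mutants, above background on 3. In the other direction, a dim probe set of Itga4 had 7.19, 7.66, 7.78 and 5.82 in the controls, above background on 3, and 5.59, 5.27, 4.84 and 6.24 in the mutants, above background on none. All 3 were left out by the filter on dim signals and were not tested. The share of all probe sets above background was lowest on controls 2 and 3 (44.4% and 48.0%), higher on controls 1 and 4 (57.4% and 61.0%), and highest on the mutants (64.1% to 72.6%).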
